A study of Mus musculus with 24 samples.

Results

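Cyclophilins are peptidyl-prolyl isomerases, enzymes that turn the peptide bond before a proline between its cis and trans forms, and the family is named for its binding of cyclosporin A (CsA). The 9 genes described here are Ppia, Ppib, Ppic, Ppid, Ppie, Ppig, Ppih, Ppil1 and Ppil3, a list of symbols that leaves out Ppif, the gene of the mitochondrial cyclophilin D. They were looked up by symbol among the 25239 genes of the expression table, and all 9 were listed and passed the filter on low values with which 14104 genes were tested. The symbol Ppid is easily misread: it encodes cyclophilin 40, not cyclophilin D.

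Members of the family share a catalytic domain and differ in where they act. Cyclophilin A (Ppia) is the abundant cytosolic form, and its complex with CsA inhibits the phosphatase calcineurin. Ppib and Ppic encode the cyclophilins B and C of the secretory pathway, Ppid encodes a partner of the chaperone Hsp90, and Ppie, Ppig, Ppih, Ppil1 and Ppil3 encode nuclear cyclophilins found with the spliceosome.

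The 24 libraries came from 6 cell lines, each grown from a single mouse small cell lung cancer (SCLC) tumor, so the replicates of a group are different lines. The tumors had been started with an adenovirus that expresses Cre from the CMV promoter in mice of mixed B6J/129S4vJae background carrying Rb1 flox, p130 flox (Rbl2) and Trp53 XTR alleles and Rosa26 FlpO-ER, so every group lacks Rb1 and p130 and carries the recombinase. Cre inverts a gene trap in the XTR allele, and the trapped allele holds Trp53 off. When 4-hydroxytamoxifen (4-OHT) activates FlpO-ER, the trap is removed and the gene is restored. The study divided the lines by outcome, with 3 Type D lines (4711-1, 4711-18 and 4716-11) that die after restoration and 3 Type V lines (4711-11, 4716-10 and 4716-14) that remain viable. Each line gave 1 library after 72 h with vehicle (Control), with CsA (Control + CsA), with 4-OHT (Restored) and with both (Restored + CsA), which makes 8 groups of 3 lines. The study saw Type D cells begin to lyse at about this time after restoration, and CsA protected them. The Type D Restored libraries may thus come from cultures near the onset of death, and a part of this in the levels was not tested. No group received 4-OHT without the allele, so the agent and the restored gene cannot be told apart.

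Levels are given in TPM, transcript levels scaled by gene length that sum to 1000000 in each library, so sequencing depth is unknown and a change in total RNA per cell cannot be seen. Trp53 stood at 10.5 to 15.3 TPM in the 12 libraries without restoration and at 182 to 253 TPM in the 12 with it, so the labels and the gene go together. SCLC is known as a neuroendocrine tumor, and its markers differed in these lines. Neurod1, Chga and Calca were below 1 TPM in every library and Syp reached at most 1.41 TPM, whereas Ncam1 was at 4.46 to 27.3 TPM in all libraries, and Uchl1 and Insm1 were at 3.12 to 40.9 and 1.13 to 49.6 TPM in Type V and at most 2.66 and 3.39 TPM in Type D. The endothelial markers Pecam1, Cdh5 and Kdr were below 1 TPM throughout, as were the leukocyte markers Ptprc and Cd3e. Of the macrophage markers Cd68 was at 5.6 to 55.3 TPM in all libraries and Csf1r reached at most 1.53 TPM. The restoration and CsA comparisons share libraries, as do those for 1 type and for all 6 lines, so they are not independent of each other.

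The promoters of 3 members are shown, chosen by the results of these genes on restoration: Ppih and Ppil1 had the smallest adjusted p of the members that fell, and Ppil3 was the member that rose. RefSeq gave a window of 300 bases, from 250 before to 50 after the gene start, for 6 of the 9 members on GRCm38.p6. The windows are chr4:119320474-119320773 on the minus strand for Ppih, chr17:29263922-29264221 on the minus strand for Ppil1 and chr1:58445437-58445736 on the minus strand for Ppil3. They are written 5′ to 3′ along the gene, and capitals mark matches to the motifs named after them.
Ppih: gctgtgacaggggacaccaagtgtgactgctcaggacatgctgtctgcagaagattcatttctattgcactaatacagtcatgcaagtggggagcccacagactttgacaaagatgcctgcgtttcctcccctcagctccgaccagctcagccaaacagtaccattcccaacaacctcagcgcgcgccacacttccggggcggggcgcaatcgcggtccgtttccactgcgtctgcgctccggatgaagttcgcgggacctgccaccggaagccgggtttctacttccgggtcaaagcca
Ppil1: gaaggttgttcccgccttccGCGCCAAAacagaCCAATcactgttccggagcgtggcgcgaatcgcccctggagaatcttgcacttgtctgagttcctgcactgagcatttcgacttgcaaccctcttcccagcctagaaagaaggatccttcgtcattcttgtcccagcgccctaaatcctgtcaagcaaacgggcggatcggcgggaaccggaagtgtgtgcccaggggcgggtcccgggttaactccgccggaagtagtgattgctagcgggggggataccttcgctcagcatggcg
Ppil3: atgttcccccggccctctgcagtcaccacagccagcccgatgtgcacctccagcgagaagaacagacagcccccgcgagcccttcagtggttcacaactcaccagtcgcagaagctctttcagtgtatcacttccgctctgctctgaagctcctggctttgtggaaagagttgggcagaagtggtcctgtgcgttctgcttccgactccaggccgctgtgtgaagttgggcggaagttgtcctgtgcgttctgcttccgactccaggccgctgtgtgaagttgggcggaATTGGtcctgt
On both strands these were searched for the CCAAT box (CCAAT), the cell cycle homology region (TTTGAA), the E2F site (TTTCGCGC or TTTGGCGC) and, by name, the p53 site with both of its arms adjoining. The Ppil1 window held an E2F match beginning 230 bases before the gene start and a CCAAT box beginning 217 bases before it, with no letters in common, and the Ppil3 window held a CCAAT box beginning 39 bases after it. The Ppih window held none of the 4 motifs. Of the windows not shown, that of Ppia held none, that of Ppib held 2 CCAAT boxes and that of Ppig held 1 cell cycle homology region. Whether a motif goes with the change of a gene was not tested. Among all 32851 promoters of that length, 37.4 percent held a CCAAT box, 17.9 percent the cell cycle homology region, 0.813 percent the E2F site and 0.00913 percent the p53 site. A match of letters is not evidence of a bound factor.

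The abundance of the 9 genes was examined first, to ask which of them were plentiful in these cells. Ppia was the most abundant in 24 of 24 libraries. In Control its level was 864, 840 and 951 TPM in the Type D lines 4711-1, 4711-18 and 4716-11, and 898, 913 and 1149 TPM in the Type V lines 4711-11, 4716-10 and 4716-14. It ranked between place 93 and place 155 among all genes of those libraries, and it took 49.5 ± 4.69 percent of the summed TPM of the 9 members (SD, n = 6). That sum was 1894 ± 183 TPM in Control.

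Below Ppia came a cluster of 4 genes of similar level. Over the 6 Control libraries the mean was 276 ± 116 TPM (SD, n = 6) for Ppic, 184 ± 17.7 TPM for Ppib, 175 ± 19.1 TPM for Ppil1 and 160 ± 21.3 TPM for Ppid. The remaining genes were Ppie with 67.1 ± 8.34 TPM, Ppig with 45.3 ± 4.73 TPM, Ppih with 28.4 ± 1.79 TPM and Ppil3 with 22.0 ± 4.82 TPM. Ppif, for comparison, had 24.02 ± 9.47 TPM, close to the lowest of the 9. The order of the means was the same in both types.

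Neighbours in this order were compared within each line on log2(TPM + 1) with an exact sign-flip permutation test, two-sided, over 8 pairs. Ppia exceeded Ppic by 1.85 ± 0.59 log2 in 6 of 6 lines, and Ppid exceeded Ppie by 1.24 ± 0.23 log2 in 6 of 6 lines. Ppie over Ppig, Ppig over Ppih and Ppih over Ppil3 were also in the same direction in 6 of 6 lines, with mean differences of 0.55, 0.65 and 0.38 log2. Each of these 5 pairs reached p = 0.03125, the smallest the exact test can give with 6 lines, which is 0.05 after adjustment and therefore not under the threshold. Ppic and Ppib (4 of 6 lines, exact p = 0.125), Ppib and Ppil1 (3 of 6 lines, exact p = 0.375) and Ppil1 and Ppid (5 of 6 lines, exact p = 0.125) did not differ beyond the spread between lines. With each line averaged over its 4 libraries, 6 of the 8 pairs passed, but not in the same order: Ppih then lay below Ppil3 in 6 of 6 lines, and Ppib lay above Ppil1. These 6 pairs were again at p = 0.03125 by the exact test. The adjusted value was 0.0417 only because 6 pairs rather than 5 reached that smallest p. The averages also mix libraries with and without restoration.

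The lower end of the order turned over with restoration. Ppih lay above Ppil3 in all 6 Control libraries, where the ratio of Ppil3 to Ppih was 0.566 to 0.926. Ppil3 lay above Ppih in 12 of 12 libraries with restored Trp53, with a ratio of 1.99 to 4.74. In Control + CsA that ratio ran from 0.612 to 1.06, and Ppil3 was the higher in 2 of 6 libraries. The cluster below Ppia changed its order of means as well. In Restored, Ppib (154.8 TPM) lay above Ppic (153.7 TPM), and Ppid (117.8 TPM) lay above Ppil1 (111.9 TPM). The order of the Restored means thus kept 3 of the 9 places held in Control, and it was not tested. Ppie, by contrast, held the sixth place in 24 of 24 libraries.

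**Figure D1:**
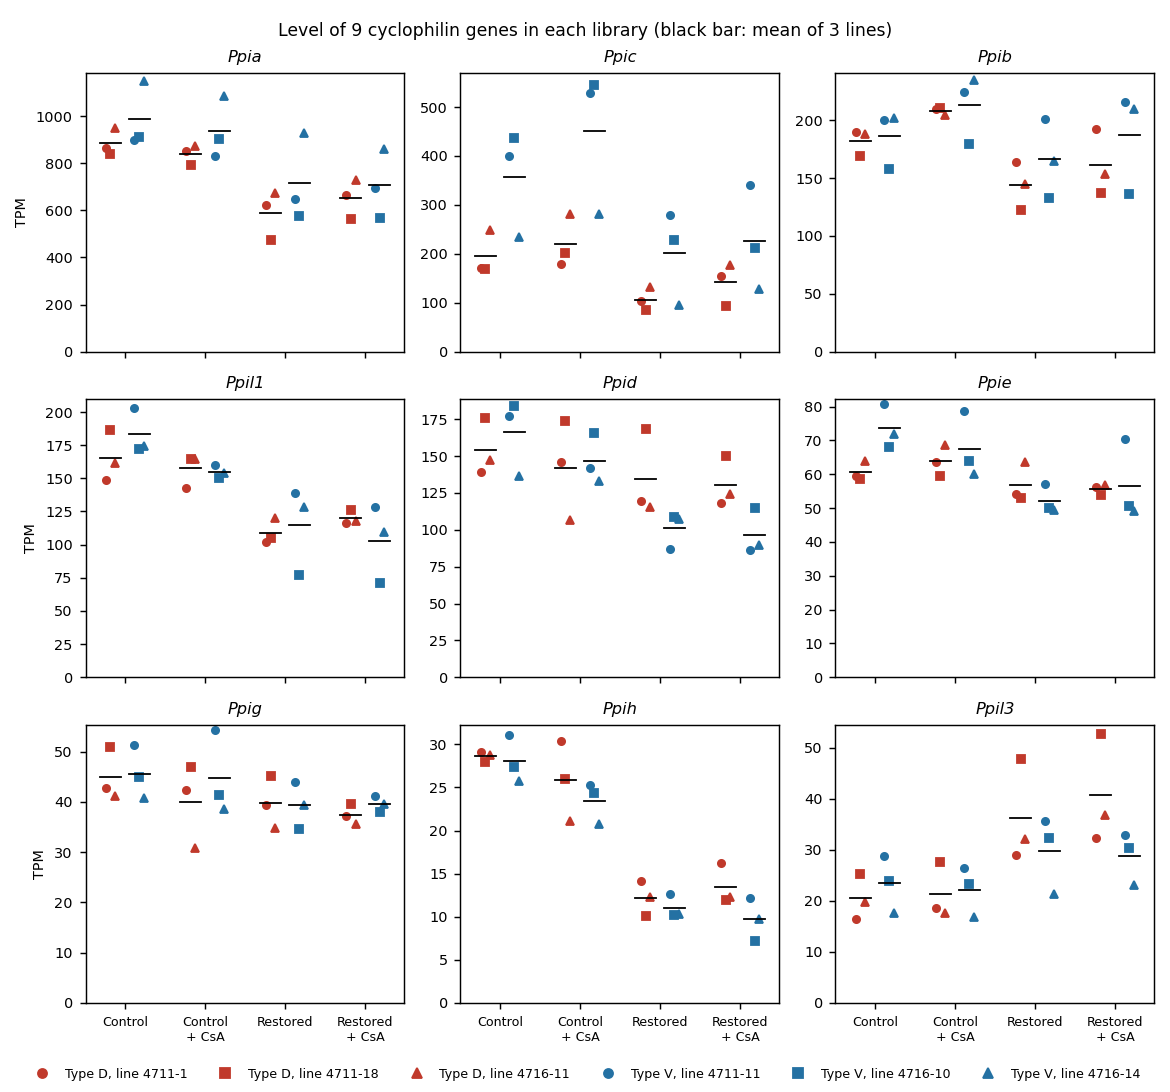
TPM of each of the 9 genes (vertical axis, linear, from 0, with a scale of its own for each gene) in the 24 libraries, by treatment; symbols are lines, colors are types and black bars are means of 3 lines. Ppih falls from 25.8 to 31.1 TPM in Control to 10.1 to 14.2 TPM in Restored with no overlap, and Ppil3 is the gene whose means are higher after restoration in both types.

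Type D and Type V were compared next, to ask whether lines that die after restoration had other levels of these genes. None of the 9 members passed in any of the 4 treatments with limma at an adjusted p under 0.05, whereas 13.1, 15, 14.8 and 11.9 percent of the 14104 genes passed in Control, Control + CsA, Restored and Restored + CsA. At an unadjusted p under 0.05 it was 0, 1, 0 and 2 members, against 3850, 4047, 4120 and 3730 genes. The groups did not overlap for 1 member in each treatment, against 31.4, 31.8, 29.2 and 30 percent of all genes. The 95% intervals of the difference in Control lay between -0.74 and 0.43 log2 for 8 members, and that of Ppic was wider.

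Ppic had the largest difference between types. Its Control level was 170, 168 and 248 TPM in the Type D lines and 400, 437 and 234 TPM in the Type V lines, and the highest Type D line overlapped the lowest Type V line, 4716-14. The difference of Type D minus Type V was -0.84 log2 in Control (95% interval -1.69 to 0.01, limma adjusted p = 0.189) and -1 log2 in Control + CsA (-1.85 to -0.15, adjusted p = 0.106), where the groups did not overlap. It was -0.79 log2 in Restored and -0.61 log2 in Restored + CsA. Without line 4716-14, Ppic passed in Control (-1.12 log2, limma adjusted p = 0.0279), in Control + CsA (-1.31 log2, adjusted p = 0.0108) and in Restored (-1.26 log2, adjusted p = 0.0139).

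Fibroblast marker genes moved with the same split. Summed over Pdgfra, Pdgfrb, Dcn, Lum and Col1a1, they stood at 62.2 to 474 TPM in Type V libraries and at 0.247 to 1.89 TPM in Type D libraries. In Type V 4 of the 5 reached 1 TPM in some library, and in Type D 1 did, with Lum at 0 in every Type D library. Their part in the difference of Ppic was not tested.

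For Ppie, an RNA-binding cyclophilin of the spliceosome, Control levels were 59.5, 58.7 and 63.9 TPM in Type D and 80.7, 67.9 and 71.9 TPM in Type V. The groups did not overlap, but the difference of -0.27 log2 (-0.56 to 0.02) did not pass (limma adjusted p = 0.213). Ppid did not overlap in Restored, with 120, 168 and 115 TPM in Type D against 87.3, 109 and 107 TPM in Type V. Its difference there was 0.39 log2 (-0.01 to 0.79, limma adjusted p = 0.177), and in Restored + CsA it was 0.43 log2 (0.03 to 0.83, adjusted p = 0.152). For Ppia, the most abundant member, the interval in Control was -0.55 to 0.25 log2.

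The effect of restoring Trp53 was then tested. Over all 6 lines, Ppia, Ppic, Ppid, Ppie, Ppih and Ppil1 fell and Ppil3 rose, so 7 of 9 members passed, where 23.1 percent of all genes did (13.7 percent higher and 9.35 percent lower). With the line as a block all 9 passed, where 56.3 percent of all genes did. The median change was -0.46 log2 over the members and 0.07 log2 over all genes tested. Only Ppih was also past 1 log2, which with the adjusted p is the study's rule for a called gene and was met by 6.84 percent of all genes. After median-ratio scaling and after quantile normalization 8 members still had changes below 0, while the share of passing genes that were higher moved from 59.4 to 53.2 and 46.2 percent.

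Ppih fell the most. This gene encodes cyclophilin H, which binds the U4/U6.U5 particle of the spliceosome through Prpf4. In Type D its level went from 29.2, 27.9 and 28.7 TPM in Control to 14.2, 10.1 and 12.3 TPM in Restored, and in Type V from 31.1, 27.4 and 25.8 TPM to 12.7, 10.2 and 10.4 TPM. The Control and Restored libraries were far apart in both types. The change was -1.23 ± 0.13 log2 (SE) over 6 lines (limma adjusted p = 1.62e-06), -1.18 log2 in Type D (adjusted p = 0.000275) and -1.27 log2 in Type V (adjusted p = 0.00019).

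Ppil1, another spliceosomal cyclophilin, which binds Snw1, fell by 0.66 log2 over 6 lines (limma adjusted p = 0.002). In Type D it went from 149, 187 and 162 TPM to 102, 105 and 120 TPM, and in Type V from 203, 172 and 175 TPM to 139, 76.8 and 128 TPM. Control and Restored did not overlap in either type, and line 4716-10 had the largest drop.

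Ppia fell by 0.54 log2 over 6 lines (limma adjusted p = 0.00666). In Type D it went to 624, 474 and 674 TPM and in Type V to 649, 576 and 929 TPM. It was lower in 6 of 6 lines, with changes from -0.82 to -0.31 log2, and the Type V groups overlapped because of the high level of line 4716-14 after restoration. The best rank of Ppia in a Restored library was place 112 and the lowest was place 308.

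Of the members of the secretory pathway, Ppic fell by 0.89 log2 over 6 lines (limma adjusted p = 0.0299), with changes in the 6 lines from -1.29 to -0.52 log2, and did not pass without any 1 of 4711-1, 4711-18, 4716-11 or 4716-10 (adjusted p of 0.0788 to 0.0948). With the line as a block Ppic had a limma adjusted p of 7.4e-06. Its Restored level was 103, 84.6 and 132 TPM in Type D and 279, 229 and 95.2 TPM in Type V. Ppib, which acts on collagen and other folding proteins in the endoplasmic reticulum, had a change of -0.26 log2 (-0.54 to 0.01) that did not pass (adjusted p = 0.168), and passed with the line as a block (adjusted p = 0.00333).

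Ppid, the Hsp90 partner, fell by 0.46 log2 over 6 lines (limma adjusted p = 0.0184), and Ppie fell by 0.29 log2 (adjusted p = 0.0371, and 0.0528 with Control and Restored fitted alone). Ppid did not pass without 4711-1, 4716-11 or 4711-11 (adjusted p of 0.0622 to 0.106), and Ppie did not pass without any 1 line other than 4711-11 (0.0641 to 0.139). With the line as a block the limma adjusted p was 0.000176 for Ppid and 0.00015 for Ppie. In Type V, Ppid went from 177, 184 and 137 TPM to 87.3, 109 and 107 TPM with no overlap, whereas in Type D it went from 140, 176 and 147 TPM to 120, 168 and 115 TPM with overlap. Ppig, a cyclophilin with a long tail rich in arginine and serine, had a change of -0.19 log2 (-0.44 to 0.05) with an adjusted p of 0.261 by limma, of 0.0232 with the line as a block and of 0.042 after quantile normalization. It was lower in 6 of 6 lines.

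Ppil3, found in spliceosomes, was the member that rose. Its level went from 16.5, 25.3 and 19.9 TPM to 29.0, 47.7 and 32.1 TPM in Type D with no overlap, and from 28.8, 23.96 and 17.6 TPM to 35.7, 32.3 and 21.3 TPM in Type V with overlap. The change over 6 lines was 0.55 log2 (limma adjusted p = 0.0423), and it was higher in 6 of 6 lines. In the fit without the block the call depended on the lines: without any 1 of 4711-1, 4711-18, 4716-11, 4711-11 or 4716-10 the adjusted p was 0.0576 to 0.126. It was 0.0566 with no filter on low values, 0.0776 after quantile normalization and 0.0775 in the compared groups alone. With the line as a block the limma adjusted p was 5.66e-07.

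The fits for 1 type at a time passed fewer members. In Type D, Ppia (-0.60 log2, limma adjusted p = 0.046) and Ppih passed, 2 of 9 members against 12.9 percent of all genes. With the line as a block it was 6 of 9 members against 45.3 percent of all genes, namely Ppia, Ppib, Ppic, Ppih and Ppil1 lower and Ppil3 higher. Ppia in Type D passed narrowly in the fit without the block, and its limma adjusted p with the block was 0.000113. In the unblocked fit it was 0.0609 without line 4711-11 and 0.166 to 0.303 without any 1 of the Type D lines. It was 0.0705 to 0.0941 there with no filter, after quantile normalization or in the compared groups alone. Without line 4716-14, 4 members passed, Ppic and Ppil3 among them, and without any 1 of the Type D lines Ppih alone did. Ppil1 missed the threshold there at 0.055 and passed at 0.00663 after median-ratio scaling, at 0.0185 after quantile normalization and at 0.0421 in the compared groups alone. Control and Restored did not overlap for 6 of 9 members in Type D, against 33 percent of all genes, and for 4 of 9 in Type V, against 22.3 percent.

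In Type V, Ppid (-0.71 log2, limma adjusted p = 0.0216), Ppie (-0.49 log2, adjusted p = 0.0285), Ppih and Ppil1 (-0.72 log2, adjusted p = 0.0254) passed, 4 of 9 members against 9.95 percent of all genes. With the line as a block it was 7 of 9 against 40.6 percent, with Ppia and Ppic added among the lower and Ppil3 the higher. Without line 4711-1, 4716-11, 4716-10 or 4716-14 the count without the block was 2, and in the compared groups alone it was 1, Ppih. Over all 6 lines the count of 7 became 3 without line 4711-1 or 4716-11 and 4 without 4711-18 or 4716-10, while Ppia, Ppih and Ppil1 passed whichever line was left out.

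**Figure D2:**
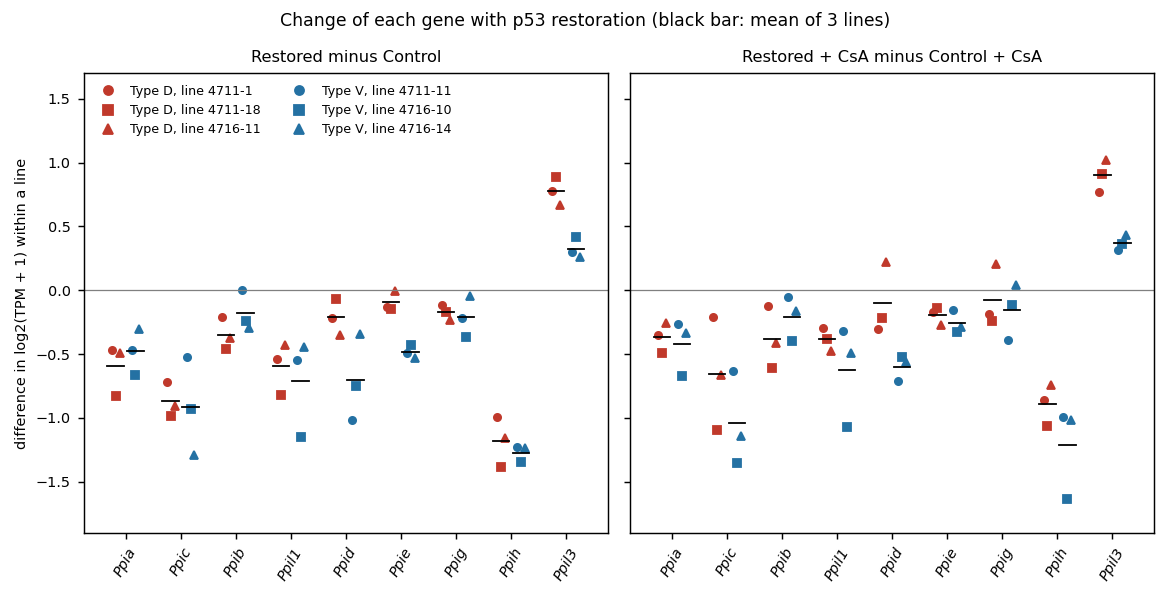
Difference in log2(TPM + 1) between restored and unrestored libraries of the same line (vertical axis) for each gene, without CsA (left) and with CsA (right); symbols are lines, colors are types and black bars are means of 3 lines. Ppih lies between -1.39 and -0.99 in the left panel in all 6 lines, and Ppil3 is above 0 in every line of both panels.

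Whether the response to restoration differed between types was tested as the difference of the changes. No member passed with limma, and none had an unadjusted p under 0.05, where 540 genes did and 0.0284 percent of genes passed. With the line as a block 2 of 9 members passed, Ppie and Ppil3, where 5.57 percent of all genes did. Ppie had within-line changes of -0.13, -0.15 and -0.01 log2 in Type D and of -0.49, -0.43 and -0.53 log2 in Type V, which do not overlap. The difference was 0.39 log2 (limma adjusted p = 0.0334 with the block and 1 without it). With CsA the Ppie changes were -0.17, -0.14 and -0.27 log2 in Type D and -0.16, -0.33 and -0.29 log2 in Type V, which overlap. Ppil3 had changes of 0.78, 0.89 and 0.67 log2 in Type D and 0.30, 0.42 and 0.26 log2 in Type V, a difference of 0.45 log2 (adjusted p = 0.0266 with the block and 1 without it). With CsA the Ppil3 changes were 0.77, 0.91 and 1.02 log2 in Type D and 0.31, 0.36 and 0.43 log2 in Type V, without overlap. For Ppid the difference was 0.50 log2 (limma adjusted p = 0.0832 with the block), and for Ppia it was -0.12 log2 with an interval of -0.68 to 0.45.

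Restoration in the presence of CsA gave mean changes of the same sign as without CsA for all 9 members in both types. Within lines, Ppid was lower in 5 of 6 and Ppig in 4 of 6, while each other member kept 1 sign in all 6. In Type D, Ppih (-0.89 log2, limma adjusted p = 0.00462) and Ppil3 (0.90 log2, adjusted p = 0.0421) passed, 2 of 9 members against 8.89 percent of all genes, and in Type V Ppih alone passed (-1.22 log2, adjusted p = 0.000277), 1 of 9 against 7.71 percent. With the line as a block it was 7 of 9 in each type, all but Ppid and Ppig in Type D and all but Ppib and Ppig in Type V, against 41.1 percent of all genes in Type D and 37.1 percent in Type V. Ppih levels in Restored + CsA were 16.3, 11.9 and 12.2 TPM in Type D and 12.2, 7.17 and 9.77 TPM in Type V, below all levels in Control + CsA, which were 20.8 TPM or more. Restored + CsA and Control + CsA did not overlap for 7 of 9 members in Type D, against 31.9 percent of all genes, and for 3 of 9 in Type V, against 19.5 percent. Ppil3 in Type D rose to 32.4, 52.8 and 36.9 TPM. Without line 4711-18 Ppih in Type D did not pass (limma adjusted p = 0.0806), as in the compared groups alone (0.0587), and Ppil3 in Type D did not pass without 4711-1, 4711-18, 4716-11 or 4716-10 (adjusted p of 0.0642 to 0.314). In Type V, Ppil1 passed after median-ratio scaling and quantile normalization (adjusted p = 0.0149 and 0.027), Ppid after median-ratio scaling (0.04999), and Ppih did not pass in the compared groups alone (0.0933).

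The effect of CsA itself on the transcripts of its targets was asked in the absence and presence of restoration. No member passed with limma in any of the 4 groups or over the 6 Control lines, and none reached an unadjusted p under 0.05, where 54 to 229 of all genes did. Of all genes 0.0142 percent passed in Type D Restored and 0 percent in the other 4 comparisons. With the line as a block no member passed either, where 0.0142, 0, 0.411 and 0 percent of all genes did in the 4 groups (Type D Control, Type V Control, Type D Restored and Type V Restored) and 0.269 percent over the 6 Control lines. Over the 6 Control lines the largest change was that of Ppic, 0.25 log2 with an interval of -0.35 to 0.85, and the intervals of the other 8 members lay between -0.49 and 0.47 log2. These intervals are from the fit without the block, which counts the spread between lines as error and can miss a small change shared by the lines. Within lines the changes of Ppic ran from 0.07 to 0.40 log2.

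Some of these small differences had the same sign in every line. The share of all genes with the same sign in 6 of 6 lines was not computed. Ppib was higher with CsA in 6 of 6 lines in Control and in 6 of 6 lines in Restored. In Control it went from 190, 169 and 188 TPM to 210, 210 and 204 TPM in Type D and from 200, 157 and 202 TPM to 224, 180 and 235 TPM in Type V. The Type D groups did not overlap, where 5.07 percent of all genes did not, and the mean change over 6 lines was 0.19 log2 (-0.09 to 0.47, limma adjusted p = 1, and 0.342 with the line as a block).

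Ppia was lower with CsA in 6 of 6 Control lines, with changes from -0.12 to -0.02 log2, and its mean change was -0.07 log2 (-0.36 to 0.21). Ppic was higher in 6 of 6 Control lines, by 0.07 to 0.40 log2. In Restored, Ppia was higher with CsA in 4 of 6 lines and Ppic in 5 of 6. In Type V Control, Ppih and Ppil1 did not overlap between vehicle and CsA, 2 of 9 members against 2.31 percent of all genes, with changes of -0.25 log2 (-0.65 to 0.15) and -0.24 log2 (-0.66 to 0.18). None of these passed. In Restored no member failed to overlap between vehicle and CsA, where 6.88 percent of all genes did in Type D and 2.34 percent in Type V.

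**Figure D3:**
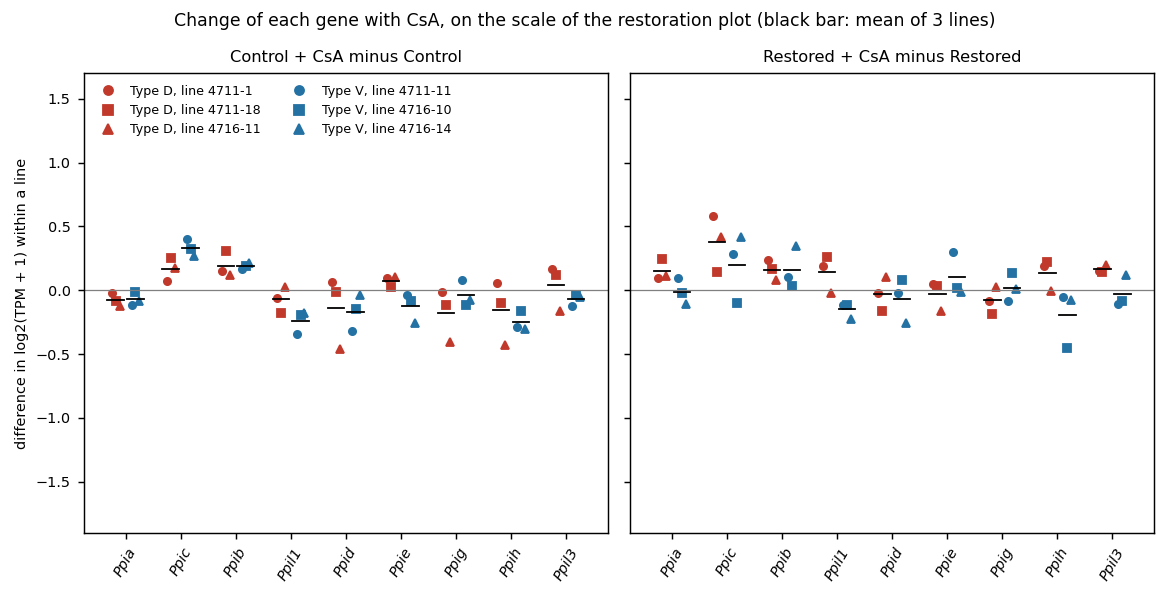
Difference in log2(TPM + 1) between libraries with and without CsA of the same line (vertical axis, on the scale of the restoration plot), in Control (left) and Restored (right); symbols are lines, colors are types and black bars are means of 3 lines. Ppib lies above 0 in all 6 lines of both panels, between 0.12 and 0.31 in Control, and Ppia lies below 0 in all 6 lines in Control.

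**Figure D4:**
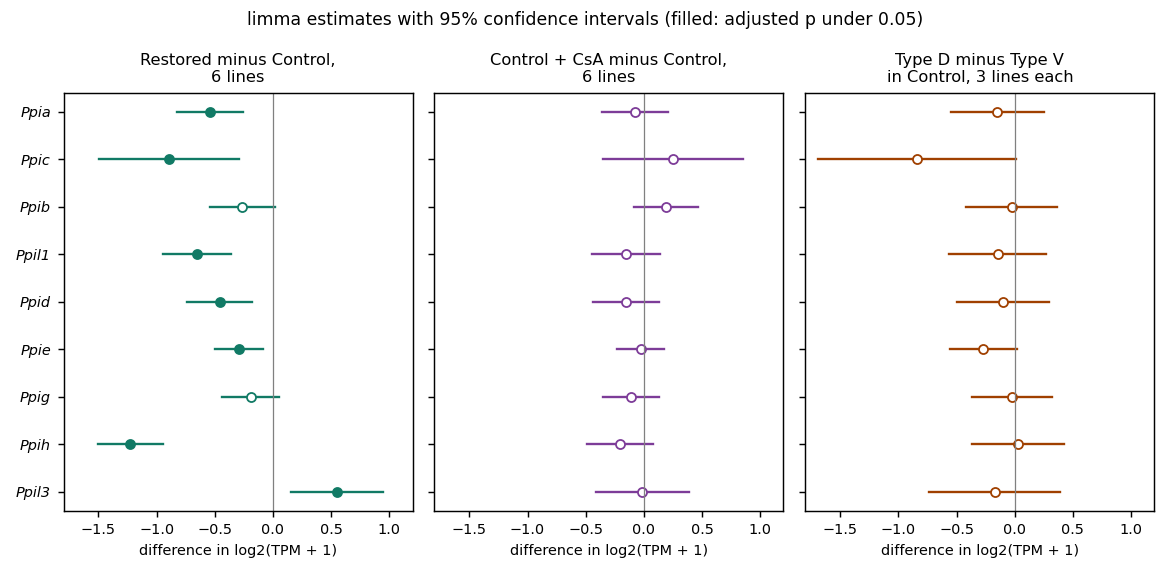
Estimates from limma with 95% confidence intervals (horizontal axis, log2(TPM + 1)) for restoration over 6 lines, CsA over 6 Control lines and Type D minus Type V in Control; filled points have an adjusted p under 0.05. All 7 filled points are in the restoration panel, where Ppih is lowest at -1.23 and Ppil3 is the point above 0.

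The genes also differed in how steady they were. Over 24 libraries the SD of log2(TPM + 1) was 0.19 for Ppig and 0.20 for Ppie, lower than in all but 2.17 and 3.23 percent of genes tested, while Ppih (0.62) and Ppic (0.77) were at percentiles 66.2 and 75. Restoration took 86.8 percent of the sum of squares of Ppih, 63.2 percent of that of Ppil1 and 55.2 percent of that of Ppia. For Ppic 29.2 percent lay between types and 29.0 percent between lines of a type. For Ppig 52.8 percent lay between lines of a type. CsA took 11.5 percent for Ppib and at most 3.72 percent for each of the other 8 members.

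Among the 36 pairs of members the Pearson correlation over 24 libraries had a median of 0.464 and was above 0 for 28 pairs. These libraries share lines and a common TPM total, so the values are a description. Ppih and Ppil1 were the closest pair with r = 0.855, which was 0.423 once group means were removed. Ppia and Ppil3 ran opposite with r = -0.852, and with r = -0.799 after removal of group means. The highest Ppil3 levels, 47.7 and 52.8 TPM, were in the libraries with the lowest and second lowest levels of Ppia, those of line 4711-18 after restoration.

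**Figure D5:**
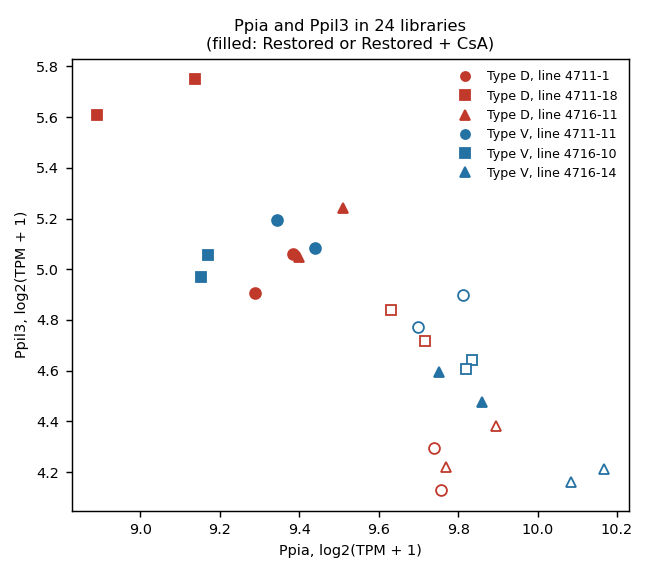
log2(TPM + 1) of Ppia (horizontal axis) against that of Ppil3 (vertical axis) in the 24 libraries; symbols are lines, colors are types, and filled symbols are Restored or Restored + CsA. The points fall from upper left to lower right (r = -0.852), with line 4711-18 after restoration at the upper left and line 4716-14 without restoration at the lower right.

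The genes outside the lists that followed each member most closely over the 24 libraries were taken by the highest r. For Ppia they were Hnrnpab (r = 0.956), an RNA-binding protein, and D17H6S56E-5 (r = 0.938). For Ppib they were Manf (0.937) and Ddost (0.924), both of the endoplasmic reticulum, and for Ppic Dock11 (0.91) and Tulp3 (0.886). For Ppih they were Nup35 (0.96), a nuclear pore protein, and Poc1a (0.959), a centriole protein, and for Ppil1 Dctpp1 (0.957), a nucleotide hydrolase, and Chtf18 (0.946), of a clamp loader. Ppid had Polr1a (0.933), the large subunit of RNA polymerase I, and Cdc14a (0.93). Ppie had Rwdd1 (0.862) and Dazap1 (0.861), Ppig had Yme1l1 (0.91) and Naa15 (0.886), and Ppil3 had Fam135a (0.914) and Gigyf2 (0.913).

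Of the 8 other cyclophilins, 7 were tested, since Ppil6 passed 1 TPM in 1 library. With restoration over 6 lines 1 passed, where 23.1 percent of all genes did: Ppil2, a cyclophilin with a U-box, which rose by 0.31 log2 (limma adjusted p = 0.00943) and also rose in Type D with CsA (0.51 log2, adjusted p = 0.00755). In the blocked fit 4 of the 7 passed, where 56.3 percent of all genes did, with Nktr (0.52 log2, limma adjusted p = 0.000895) higher and Ppwd1 (-0.44 log2, adjusted p = 0.00174) and Cwc27 (-0.21 log2, adjusted p = 0.0224) lower. Their median change was 0.05 log2. Ppif had a change of -0.15 log2 (-0.68 to 0.38, adjusted p = 0.737), and none of the 7 passed in a comparison of types or of CsA. In the blocked fit Ppif did not pass over 6 lines (limma adjusted p = 0.23). It passed there for restoration in Type V with CsA (-0.39 log2, adjusted p = 0.0472).

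Of 18 other prolyl isomerases, the FK506-binding proteins and the parvulin group, 16 were tested, and 4 fell and 0 rose with restoration over 6 lines. Of all genes 23.1 percent passed, 9.35 percent lower and 13.7 percent higher. The median change of the 16 was -0.29 log2. Blocked by line, 10 were lower and 2 higher, Fkbp9 (0.33 log2) and Fkbpl (0.38 log2), so 12 of 16 passed, where 56.3 percent of all genes did. The response of Fkbp9 also differed between types in the blocked fit (-0.43 log2, limma adjusted p = 0.0227). Fkbp4, like Ppid a partner of Hsp90, fell by 1.03 log2 from 606 to 303 TPM (limma adjusted p = 8.38e-05), and Fkbp1a, the target of FK506, fell by 0.65 log2 from 515 to 323 TPM (adjusted p = 1.25e-05). Fkbp5 fell by 0.89 log2 and Fkbp3 fell by 0.62 log2 (adjusted p = 0.00759 and 0.00133). Between types in Control 2 were higher and 2 lower in Type D, namely Fkbp1a (0.79 log2), Fkbp5 (0.99 log2), Fkbp7 (-1.22 log2) and Fkbp9 (-1.23 log2), all passing with limma. In Control + CsA, Restored and Restored + CsA it was 6, 6 and 5 of the 16, where 13.1 percent of all genes passed in Control and 15, 14.8 and 11.9 percent in these.

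Of 18 known partners of the members, all tested, 2 fell and 1 rose with restoration over 6 lines, where 23.1 percent of all genes passed, with a median of -0.05 log2. The blocked fit had 8 lower and 3 higher, where 56.3 percent of all genes passed. Isy1, which sits in the same spliceosomal complex as Ppie, fell by 0.77 log2 (limma adjusted p = 6.63e-06), Hsp90ab1, the Hsp90 that binds the product of Ppid, fell by 0.56 log2 from 4830 to 3265 TPM (adjusted p = 0.00306), and Canx rose by 0.32 log2 (adjusted p = 0.0402). Prpf4 and Prpf3, the partners of Ppih, had changes of -0.29 and -0.44 log2 that passed with the line as a block (limma adjusted p = 0.00332 and 0.000213) and not without it. Between types none of the 18 passed in Control, 5 in Control + CsA, 2 in Restored and 3 in Restored + CsA, where 13.1, 15, 14.8 and 11.9 percent of all genes did. Crtap, which works with Ppib on collagen, was among them each time, with differences of -1.03, -1.03 and -1.35 log2, and CsA changed no gene of these 3 lists by the test.

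Some values carry a limit of mapping. In GENCODE M21 on GRCm38, transcripts of 11 other genes share at least 75 bases at 97 percent identity or more with Ppia and those of 6 other genes with Ppih, so reads of these members could be split or shared. For Ppia 1 of the 11 is listed in the table, Gclm, at 86.7 to 511 TPM, and for Ppih 1 of the 6 is listed in the table, Gm10069, at 0.866 to 3.88 TPM. Ppil3 overlaps Nif3l1 on the opposite strand, which stood at 21.1 to 45.7 TPM. Libraries were stranded, but whether the counting used strand is not given in the sources used here, so the levels of Ppil3 are uncertain to that extent.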

How the data were processed

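One table of the series, deposited by the authors, gives TPM for 25239 genes in 24 libraries and was used unchanged; 0 columns belonged to other samples. Per the labels, RNA was made into stranded mRNA libraries, and the submitters' processing notes name HISAT2, mm10 and GRCm39, with no roles. The study's methods name kallisto or HISAT2, so the quantifier and build behind the table are uncertain. TPM sums to 1000000 in each library, keeps no counts and gives no depth, so precision rests on the 3 lines of a group, and a rise in some genes lowers the others.

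Values were analysed as log2(TPM + 1), which understates changes of low genes. Genes of at least 1 TPM in at least 3 samples (14104 in all) entered limma 3.58.1 under R 4.3.3 (1 coefficient per group, all 24 libraries, eBayes with trend), two-sided, with Benjamini-Hochberg adjustment over these genes within each of 15 comparisons. Passing is an adjusted p under 0.05. The scripts were checked on simulated data. The members, lists and rules were chosen with earlier results of these data known. Libraries of a line are paired by the labels: with group means removed, r was between 0.599 and 0.929 for the 36 pairs from 1 line (median 0.76) and between -0.727 and 0.0438 for the 96 pairs from unlike lines within a type. Removing the mean of 3 lines by itself pushes the values of unlike lines down, so this contrast is partly built in. Whether the study used the line as a block is not given in the sources used here, so the fit has none and the block was an alternative, and values are given where it changed a call. Named genes are all members, Ppif, other cyclophilins that passed in either fit, up to 4 passing genes per other list and comparison for the comparisons described, and the 2 closest genes by correlation outside the lists. Prpf4, Prpf3, Nif3l1, Gclm, Gm10069, Fkbp9 and Fkbpl with restoration were named after their values were seen. Promoters are from RefSeq (GRCm38.p6) and gene models from GENCODE M21. Figures were drawn with matplotlib 3.10.9. Alternatives were a pseudocount of 0.1, no filter (20066 genes), a minimum of 5 TPM (11785 genes), median-ratio scaling (factors 0.883 to 1.1), quantile normalization, the block, the compared groups alone, and each line left out. Protein sequences and data of other kinds from the study were not used here. Some marker genes are not reported here.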

Additional observations from a re-analysis of the deposited data

Results flagged for a closer look

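The mean change of Ppie with CsA in Control was 0.2 log2 above that of Type V in Type D, since all 3 Type D lines had higher values with CsA (mean 0.07 log2) and all 3 Type V lines had lower ones (mean -0.13 log2). This difference between types was not tested, and neither change passed by itself.

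The change of Ppie with restoration was 0.391 log2 less negative for Type D lines, and that of Ppil3 was 0.452 log2 more positive for them. Both were singled out by the test of the difference with the line as a block (limma adjusted p = 0.0334 and 0.0266) and not by the fit without it. The differences of Ppie with CsA in Control and with restoration share the Control libraries, so they are not separate results. Groups of 3 lines are too small for a test of single outlying libraries.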

How the results depend on the processing

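No member changed direction with a call in any alternative. The pseudocount of 0.1 and the minimum of 5 TPM moved no call. Without the filter 1 member passed for restoration in Type D, alone and with CsA. With the replicate block (the line) 6 passed in Type D, 7 in Type V, 7 in each with CsA and 2 for the difference of the responses. The block also raised the count over 6 lines from 7 to 9 and changed no other call. It could not be fitted for Type D against Type V, since a line has only 1 type. The protein comparison that was planned was not run. In fits to the compared groups alone 1 passed in Type V, 0 in Type D with CsA and 0 in Type V with CsA. Quantile normalization gave 1 in Type D with CsA and 2 in Type V with CsA, and median-ratio scaling gave 3 in Type V with CsA. The cause was not tested.

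With each line left out in turn the count was 0 to 1 for the types in Control, Control + CsA and Restored, 1 to 4 for restoration in Type D, 2 to 4 in Type V, 0 to 2 in Type D with CsA, 1 to 2 in Type V with CsA and 3 to 6 over 6 lines. The order of mean levels kept 7 of 9 places over all 24 libraries and 3 of 9 over the 6 Restored libraries. With lines averaged 6 of 8 neighbouring pairs passed, of which Ppih and Ppil3 were in the opposite order in 6 of 6 lines. Median-ratio scaling moved the median difference of all genes between types in Control from -0.12 to -0.02 log2 and the share of passing genes that were higher in Type D from 45.1 to 54.8 percent. Depth is unknown for TPM, so counting error was not given.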
